A study of Mus musculus with 3 samples.

Results

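The 10 genes of the MYC, MAX and MXD network were followed through RNA-seq of leukemic cell lines that carry kinase-inactive CDK6. *Myc*, *Mycn* and *Mycl* (the activating partners), *Max* (the common dimerization partner), *Mxd1*, *Mxd3*, *Mxd4*, *Mxi1* and *Mnt* (the repressing partners) and *Mlx* (the MAX-like factor) were chosen as named members of the network, by a rule that reads no measured value although earlier results of these data were known, and all 10 were found by identifier among the 50686 genes of the count table. The samples were 3 libraries, numbered 1 to 3 after the labels, from stable pre-/pro-B cell lines in which bone marrow of C57BL/6 mice homozygous for the CDK6 K43M exchange (Cdk6KM/KM) had been transformed by retroviral BCR-ABLp185. The mutation, the oncogene and a GFP reporter on the same vector were shared by all 3 lines. The ages of the mice were not given, the labels do not say whether each line came from its own animal, and a stable line is a selected outgrowth. Lines of other genotypes were not analysed here, so every comparison below is between lines of 1 genotype.

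MYC proteins bind DNA as dimers with MAX at E-box sequences and recruit coactivators such as histone acetyltransferases. The MXD proteins, MXI1 and MNT compete for MAX and bring SIN3 and histone deacetylase corepressors to the same sites, so that the balance of partners sets transcription of genes for ribosome biogenesis, metabolism and the cell cycle. MLX dimerizes with some of these repressors and with the glucose-responsive factors MLXIP (MondoA) and MLXIPL, while MGA is a further MAX partner that represses germ-cell genes. In B-cell precursors, *Myc* is a well-known driver of growth, and BCR-ABL signaling is known to raise it.

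The windows that hold the letters through which these factors read DNA are shown for the members themselves, because network members can be read by their own products. RefSeq promoters on GRCm38.p6, from 250 bases before to 50 bases after a start site, were found for 9 of the 10 members (11 promoters), and *Myc*, the other member, was not searched. The E-box CACGTG, which reads the same on both strands, was present in the promoters of *Max*, *Mlx*, *Mnt* and *Mxd4*. Of 32851 promoters of that length, 2349 (7.15%) held it. The letters GGCGGGAA, an E2F-type motif searched on both strands, were found in 1 member, *Mxd3*, and in 720 promoters (2.19%). The windows below are written 5′ to 3′ on the strand of the gene, with the motif in capitals.
Max, chr12:76962246-76962287, minus strand, E-box beginning at base -3: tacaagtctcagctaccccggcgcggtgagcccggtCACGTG
Mlx, chr11:101087214-101087289, plus strand, E-box beginning at base -40: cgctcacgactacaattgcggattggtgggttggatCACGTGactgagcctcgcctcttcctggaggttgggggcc
Mnt, chr11:74830765-74830842, plus strand, E-box beginning at base -123: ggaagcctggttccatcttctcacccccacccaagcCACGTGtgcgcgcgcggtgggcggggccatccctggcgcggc
Mxd4, chr5:34187888-34187960, minus strand, E-box beginning at base -219: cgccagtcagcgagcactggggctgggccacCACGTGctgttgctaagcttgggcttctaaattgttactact
Mxd3, chr13:55329825-55329904, minus strand, E2F-type letters beginning at base -137: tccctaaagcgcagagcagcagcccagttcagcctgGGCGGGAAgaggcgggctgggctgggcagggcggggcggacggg
The E-box lay directly at the start site of *Max* and further upstream in the other genes. These are matches of letters, and binding was not measured in the data used here.

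The libraries held 19633463 to 25773221 counts, and the network took 0.118%, 0.113% and 0.0959% of the counts in lines 1, 2 and 3. Levels are given as CPM, the counts of a gene scaled to a common library total, after TMM normalization, and a gene with 0 counts may still have had up to 3, that is 0.138 CPM in line 1, 0.152 CPM in line 2 and 0.118 CPM in line 3. *Cdk6* itself was detected at 449.5, 334 and 239 CPM, and counts over exons cannot show the point mutation. All 12 markers of pre- and pro-B cells passed the filter, with summed levels of 3951, 4378 and 4123 CPM. The 21 markers of T cells, myeloid, erythroid and megakaryocytic cells and stroma summed to 2.81, 3.39 and 5.38 CPM, with 11 of them at 0. The lines thus carried the markers of the labelled cell type, although *Dntt* was low among them, at 0.967, 1.62 and 4.28 CPM. Of the 21 markers of other cell types, 5 passed the filter and were tested. Among these, *Lyz2*, a myeloid gene, was the only one called different between lines, at 1.66, 2.03 and 3.57 CPM. Its part in the results was not tested. In such bulk libraries, fewer cells that express a gene and less of its RNA per cell cannot be told apart.

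Among the activating partners, *Myc* was abundant and *Mycl* was nearly silent. *Myc* (ENSMUSG00000022346.15, chr15:61985391-61990374, plus strand, GRCm38) was measured at 715, 659 and 553 CPM in lines 1, 2 and 3, from 13013 counts or more per library, with a mean of 642 ± 82.4 CPM (SD, n = 3). It was highest in line 1 and lowest in line 3. It ranked 156 by mean CPM among the 13974 genes that had 10 counts or more in all lines together, within the top 1.12%. The ratio of line 1 to line 3 was 1.29 (exact 95% interval 1.26 to 1.32), that of line 2 to line 3 was 1.19 (1.16 to 1.22) and that of line 1 to line 2 was 1.08 (1.06 to 1.11). All intervals of this kind cover counting error only, not the spread that repeated cultures of a line would add. *Mycn* (chr12:12936093-12941914), which encodes the MYC paralog best known from neural tissue and B-cell precursors, was measured at 97.9, 83.2 and 79.1 CPM (86.7 ± 9.90). It too was highest in line 1, by 1.24-fold over line 3 (1.16 to 1.32), whereas lines 2 and 3 differed by no more than their interval allows (ratio 1.05, 0.985 to 1.12). *Mycl* (chr4:122995652-123002485) had 0, 2 and 3 counts, at or under the limit, and was not tested.

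*Max* was low in line 3. *Max* (ENSMUSG00000059436.13, chr12:76937269-76962201, minus strand) encodes the common dimerization partner of the MYC and MXD proteins. It was measured at 154, 155 and 90.6 CPM (133 ± 36.8). Lines 1 and 2 were alike within counting error (ratio 0.992, 0.945 to 1.04), and line 3 stood below both. The ratio of line 2 to line 3 was 1.71 (1.62 to 1.81) and that of line 1 to line 3 was 1.70 (1.61 to 1.79). The difference rested on line 3: without it, the range of log2(CPM + 1) fell from 0.77 to 0.0071 and the adjusted p of the chi-square test was 0.897.

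The 5 repressing partners did not move together. *Mnt* (chr11:74830920-74845725), the repressor that is expressed in most proliferating cells, was measured at 50.4, 50.8 and 52.8 CPM (51.3 ± 1.33). Its largest ratio, line 3 to line 1, was 1.05 (0.968 to 1.14), and the 3 intervals between lines all included 1. *Mxd4* (chr5:34173883-34187720), an MXD family member, was measured at 71.5, 78.3 and 99.8 CPM (83.2 ± 14.8). It was highest in line 3, by 1.40-fold over line 1 (1.31 to 1.49). *Mxd1* (chr6:86647042-86669161), a repressor known for its rise in differentiating cells, was measured at 6.63, 8.71 and 11.4 CPM (8.91 ± 2.38). Line 3 exceeded line 1 by 1.72-fold (1.40 to 2.11), and line 1 was below line 2 as well.

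The other repressing partners were lowest in line 3. *Mxi1* (chr19:53310518-53375810), a repressor named for its interaction with MAX, was measured at 24.6, 26.9 and 17.1 CPM (22.9 ± 5.11), with a ratio of line 2 to line 3 of 1.57 (1.38 to 1.79). Lines 1 and 2 overlapped within counting error (0.913, 0.808 to 1.03). *Mxd3* (ENSMUSG00000021485.13, chr13:55325168-55329823, minus strand), the MXD gene known for expression in proliferating cells around S phase, was measured at 9.35, 15.4 and 6.09 CPM (10.3 ± 4.73). It was high in line 2, at 2.53-fold of line 3 (2.08 to 3.09) and 1.65-fold of line 1 (1.37 to 1.98), and line 1 exceeded line 3 by 1.54-fold (1.24 to 1.91). In line 3, *Mxd1* and *Mxd4* were thus at their highest, *Mxi1* and *Mxd3* at their lowest, and *Mnt* was within counting error of the other lines.

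*Mlx* (chr11:101087277-101092207) was measured at 45.8, 42.5 and 60.6 CPM (49.6 ± 9.65). It was highest in line 3, by 1.43-fold over line 2 (1.31 to 1.55), and lines 1 and 2 overlapped within counting error (1.08, 0.983 to 1.18). *Mlxip*, the MLX partner MondoA, was measured at 207, 187 and 179.8 CPM, and *Mlxipl* had no count in any line. *Mga* was measured at 186, 227 and 165 CPM, highest in line 2. Of the exonic bases of *Mlx*, 19.3% overlap *Psmc3ip* on the other strand, and the corresponding shares were 6.06% for *Mxd4*, 4.43% for *Mxd3* and 2.84% for *Mxi1*. The strand setting of the counting was not given, so reads of these genes and of their antisense partners cannot be told apart there.

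**Figure D1:**
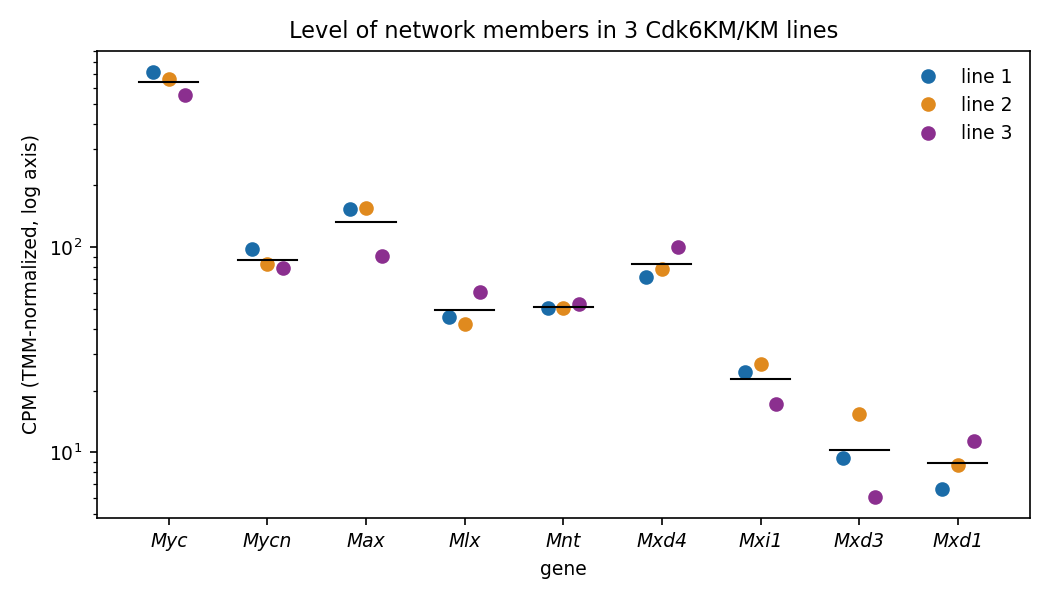
Levels of the 9 tested network members in the 3 Cdk6KM/KM lines, as TMM-normalized CPM on a log axis; each point is 1 library and each horizontal bar the mean of the 3. *Myc* lies at 553 to 715 CPM, *Mxd3* spreads from 6.09 to 15.4 CPM, and the points of *Mnt* lie between 50.4 and 52.8 CPM (*Mycl*, with 0 to 3 counts, is not plotted).

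Whether the members differed between lines beyond counting error was tested with a chi-square test of each gene's counts across the libraries, adjusted after Benjamini-Hochberg over all 13974 genes tested and called at 0.05. The test compares these libraries and not conditions. Of the 9 members tested, 8 (88.9%) were called, and of all genes tested 66.8% were called, so that a call by itself says little about a member. *Mnt* was not called (adjusted p = 0.498 by the chi-square test). Among the called members, 2 were highest in line 1 (*Myc* and *Mycn*; background 20.0% of genes tested), 3 in line 2 (*Max*, *Mxi1* and *Mxd3*; background 20.6%) and 3 in line 3 (*Mxd1*, *Mxd4* and *Mlx*; background 26.2%). *Myc* and *Mycn* were highest in line 1 and lowest in line 3, a combination held by 12.6% of genes tested. The highest line of *Max* was line 2 by less than counting error. Without line 3, 5 members were called, and *Max*, *Mxi1* and *Mlx* lost their calls (adjusted p by the chi-square test 0.897, 0.238 and 0.163), whereas *Mycn* lost its call without line 1 (0.188). The background fell as well: 6098 of 12948 genes tested were called without line 3, against 9341 of 13974 with all lines.

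By size, the range of log2(CPM + 1) between the lines ran from 0.07 for *Mnt* to 1.21 for *Mxd3*, with a median of 0.50 over the members against 0.32 over all genes tested. For 7 of the 9 members the range was above the median of all genes. Without line 3 the median over the members was 0.12. A range over fewer lines tends to be smaller for any gene, and the median over all genes was not taken for that setting. Only *Mxd3* had a range of at least 1, that is 2-fold, which 10.9% of genes tested had. Its range was larger than that of 92.3% of genes tested, and that of *Mnt* was larger than 4.57%. The steadiest and the most variable member were thus both repressing partners.

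**Figure D2:**
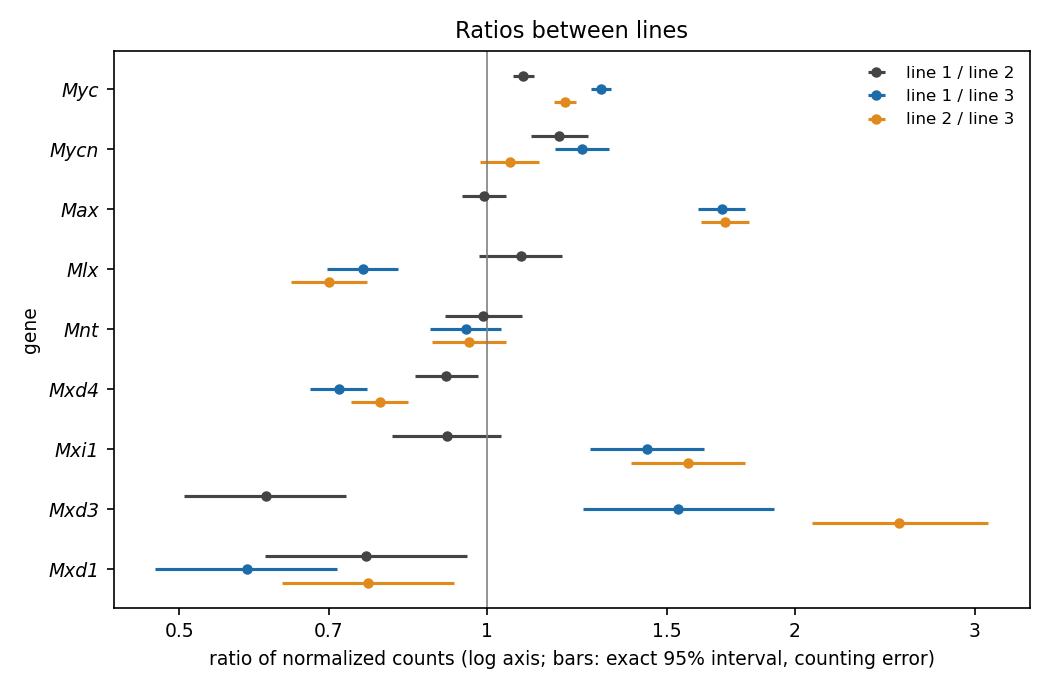
Ratio of normalized counts between each pair of lines for the 9 tested members, on a log axis; bars are exact 95% intervals for counting error, and the vertical line marks 1. The 3 intervals of *Mnt* include 1, *Max* lies at 1.70 and 1.71 against line 3 and at 0.992 between lines 1 and 2, and *Mxd3* reaches 2.53.

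Members on chromosomes 12, 13 and 5 lay among genes that also differed between the lines. The deviation of each gene in each line from its mean over the lines was taken on the log2(CPM + 1) scale and compared with the median deviation of the other tested genes within 5 Mb on either side. *Max* deviated by 0.25, 0.26 and -0.51 in lines 1, 2 and 3, and the median of its 64 neighbors deviated by 0.21, 0.22 and -0.51. Of these neighbors, 49 were lowest in line 3. The low level of *Max* in line 3 was therefore of the size shared by its stretch of chromosome 12. *Mycn*, on the same chromosome, lay among 26 neighbors whose medians differed by 0.09 between lines.

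*Mxd3* and *Mxd4* related to their neighbors in different ways. *Mxd3* deviated by -0.04, 0.62 and -0.59, and the median of its 67 neighbors by -0.23, 0.34 and -0.18, with 43 of the 67 highest in line 2. Both were highest in line 2, and the member spread more widely than the neighbor median. *Mxd4* deviated by -0.20, -0.07 and 0.27, whereas its 118 neighbors had medians of 0.23, -0.06 and -0.18. It was thus highest in the line in which its neighbors were lowest. Around *Myc*, *Mxd1*, *Mxi1*, *Mnt* and *Mlx*, neighbor medians differed between lines by 0.02 to 0.07. The larger deviations of *Mxd1* (-0.35, 0.00 and 0.35) and *Mxi1* (0.12, 0.25 and -0.37) were not shared by the genes beside them. DNA copy number was not measured in the data used here.

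**Figure D3:**
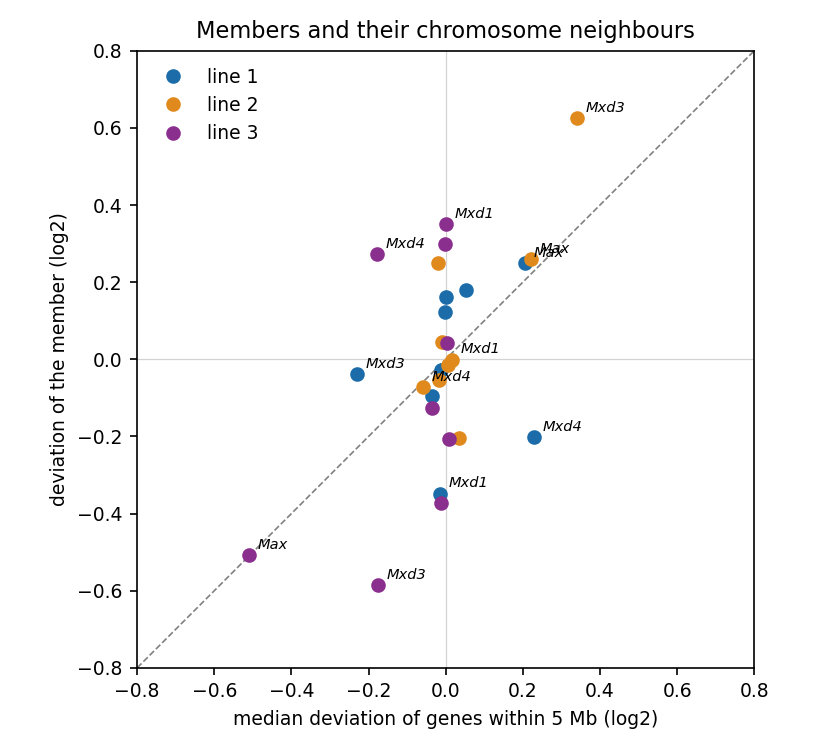
Deviation of each of the 9 tested members from its mean over the 3 lines (y axis, log2) against the median deviation of the other tested genes within 5 Mb (x axis, log2), 1 point per member and line; the dashed diagonal marks equal deviations. *Max* in line 3 lies on the diagonal at -0.51, *Mxd4* lies on the opposite side in lines 1 and 3, and *Mxd1* varies while its neighbors stay near 0.

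Compared per kb of exon, the activating side of the network exceeded the repressing side in every line. *Myc* led with 236 ± 30.3 CPM per kb (mean ± SD over 3 lines). *Max* (37.0 ± 10.2), *Mycn* (26.3 ± 3.00) and *Mlx* (24.8 ± 4.82) followed, and each of these overlapped with the next in its values over the lines. *Mnt* (11.1 ± 0.288) and *Mxd4* (9.80 ± 1.74) came next and overlapped with each other, as did *Mxd3* (4.34 ± 1.99) and *Mxi1* (3.35 ± 0.749). *Mxd1* was lowest, with 1.26 ± 0.337. *Mnt* and *Mxd4* changed places, as did *Mxd3* and *Mxi1*, when lengths were taken from 1 transcript per gene, that with the longest coding part.

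Summed by role, the activating partners came to 293, 268 and 228 CPM per kb of exon in lines 1, 2 and 3, of which *Mycn* made up 10.1%, 9.42% and 10.5%. The repressing partners came to 27.8, 31.9 and 29.9 CPM per kb, of which *Mnt* made up 39.2%, 34.4% and 38.2%. *Mga*, at 12.1, 14.8 and 10.7 CPM per kb, is outside the named members and was left out of this sum and of the ratios below. With lengths of single transcripts, *Mnt* made up 23.2%, 20.1% and 22.7% of the repressing side and *Mxd4* 39.1%, 36.8% and 50.7%. The activating side was thus highest in line 1 and lowest in line 3, and the repressing side was lowest in line 1. The ratio of activating to repressing partners was 10.5, 8.40 and 7.62 (8.85 ± 1.51). The ratio of *Myc* to *Max* was 6.16, 5.64 and 8.09 (6.63 ± 1.29), highest in line 3, in which *Myc* and *Max* were each at their lowest. By the same alternative lengths, the means of these ratios were 6.06 and 4.16. These are ratios of RNA, and the protein levels were not measured here.

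**Figure D4:**
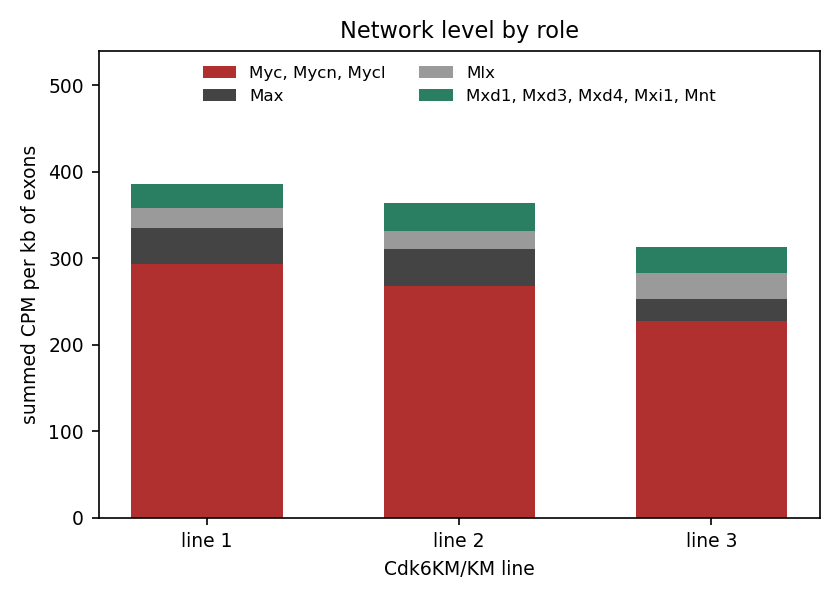
Summed level of the network by role in each Cdk6KM/KM line, as CPM per kb of exons; each bar is 1 library. The activating partners fill 75.8%, 73.6% and 72.7% of the bars of lines 1, 2 and 3 and the repressing partners 7.19%, 8.76% and 9.55%.

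The genes around the network were described with 8 lists of 89 genes, of which 88 passed the filter and 80 were called by the chi-square test, with 1 of them at a range of at least 1. Over all genes tested, 66.8% were called and 10.9% had a range of at least 1, and the counts of each list below stand beside these shares. The chi-square test calls smaller differences at higher counts, and *Mybbp1a* was called at a range of 0.056. The share of 66.8% was not matched for counts, so a higher share in a list does not show larger differences. Of the 14 MYC coactivators and chromatin cofactors, 12 were called, and the median range of the 14 was 0.19. *Ep400*, a subunit of the histone acetyltransferase and remodeling complex, was measured at 492, 431 and 296 CPM, and *Trrap*, the large scaffold protein of that complex, at 345, 316 and 247 CPM. Both were lowest in line 3, like *Myc*. *Hcfc1*, a MYC-binding chromatin cofactor, was measured at 684, 789 and 757 CPM.

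A list of 7 genes held corepressors of the MXD and MNT side and *Zbtb17* (MIZ1), a factor through which MYC represses. All 7 were called, with a median range of 0.30. *Ncor1* was measured at 408, 444 and 408 CPM and *Zbtb17* at 41.5, 47.2 and 36.9 CPM. Both were highest in line 2. Of 12 genes that act on MYC protein stability, 11 were called, 7 of them highest in line 3 and 0 highest in line 1, with a median range of 0.32. Of all genes tested, 26.2% were called and highest in line 3 and 20.0% were called and highest in line 1. *Huwe1*, a ubiquitin ligase that acts on MYC, was measured at 802, 945 and 1320.1 CPM, and *Usp28*, a deubiquitinase, at 37.7, 42.4 and 53.6 CPM. Both were highest in line 3. *Pim1*, a kinase that phosphorylates MYC, was measured at 224, 294 and 225 CPM. Of these 12 genes, 7 were called without line 3, beside 6098 of the 12948 genes tested in that setting.

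Known MYC targets were described in the same way. Of the 48 targets tested, 43 were called, and 6 of these (12.5% of those tested) had their highest and lowest line in common with *Myc*, beside 12.6% of all genes tested. Of the 20 ribosome biogenesis targets, 18 were called, 12 of them highest in line 1 and 14 lowest in line 2, with a median range of 0.19. The shares of all genes tested that were called and highest in line 1 or lowest in line 2 were 20.0% and 19.5%. *Ncl* (nucleolin) was measured at 4936, 4627 and 4686 CPM, *Mybbp1a* at 1197, 1152 and 1172 CPM, *Fbl* (fibrillarin) at 80.3, 53.3 and 67.1 CPM and *Rrp9*, a protein of the U3 particle, at 161, 129 and 188 CPM. *Fbl* and *Rrp9* were lowest in line 2, not in line 3.

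Of the 18 targets of metabolism and translation, 15 were called, with a median range of 0.21. *Eif4g1*, a translation initiation scaffold, was measured at 1698, 1623 and 1632 CPM and *Ldha* (lactate dehydrogenase) at 1552.5, 1430 and 1553 CPM. *Tfrc*, the transferrin receptor, was measured at 544, 775 and 481 CPM and *Slc19a1*, a folate carrier, at 191, 139.8 and 121 CPM. Of these, *Slc19a1* had the order of *Myc*. All 10 cell cycle targets were called, 7 of them highest in line 2 and 8 lowest in line 1, and 0 had the order of *Myc*. Of all genes tested, 20.6% were called and highest in line 2 and 23.7% were called and lowest in line 1. *Ccnd2* (cyclin D2) was measured at 723, 839 and 714 CPM, *Cdk4* at 569.8, 618 and 616 CPM, *Ccne1* (cyclin E1) at 61.8, 62.6 and 102 CPM and *E2f2* at 92.3, 133 and 102 CPM.

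All 6 genes that MYC is known to repress were called, with a median range of 0.70, above that of the other lists with at least 2 genes tested. Their mean levels ran from 3.13 to 48.0 CPM, against 66.9 to 4750 CPM for the ribosome biogenesis targets. Counting error widens a range more at low counts, and its share here was not tested. *Cdkn1b* (p27) was measured at 20.2, 35.6 and 27.8 CPM, *Cdkn2c* (p18) at 53.5, 51.6 and 38.9 CPM and *Gadd45a*, a stress-response gene, at 3.82, 6.79 and 7.38 CPM. *Cdkn1b* and *Gadd45a* were lowest in line 1, whereas *Cdkn2c* was lowest in line 3. Of the targets of MLX with MondoA, *Txnip*, an inhibitor of glucose uptake, was measured at 137, 122 and 164 CPM, and *Arrdc4* was at 0 in every line. *Txnip* was highest in line 3, as *Mlx* was, whereas *Mlxip* was highest in line 1. Of all genes tested, 26.2% were called and highest in line 3.

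**Figure D5:**
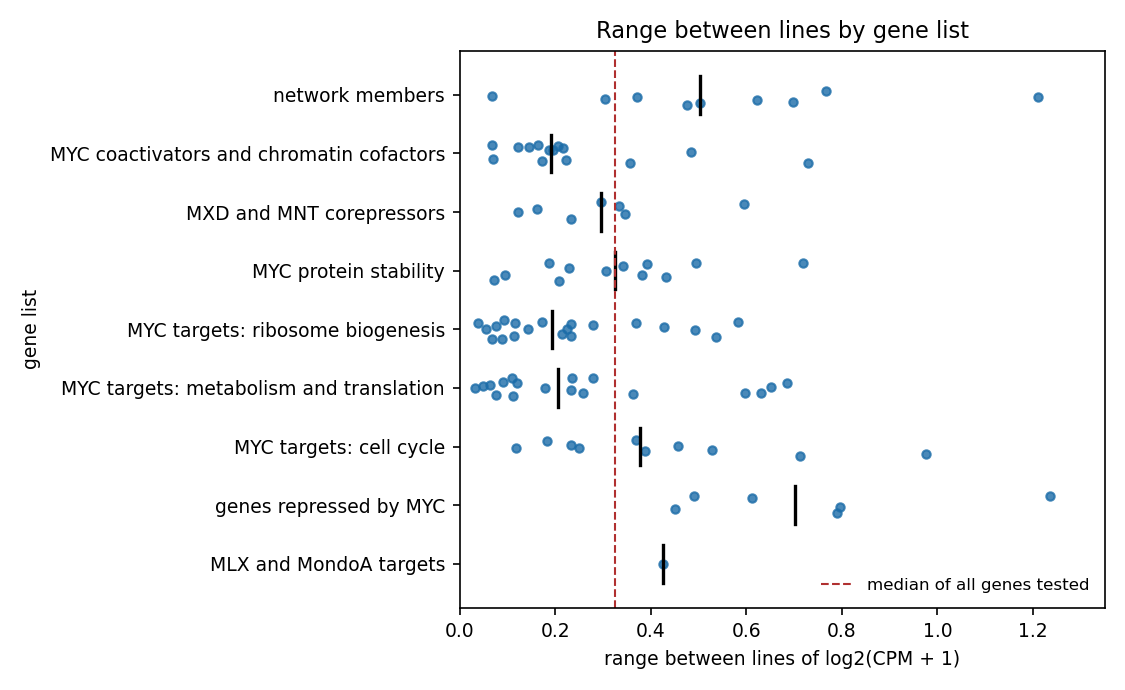
Range of log2(CPM + 1) between the 3 lines for each tested gene of the network and of the surrounding lists (points, offset vertically for display), with the median of each list (black bar) and of all genes tested (dashed line, 0.32). The median of the members is 0.50, those of the ribosome biogenesis and metabolism targets are 0.19 and 0.21, and that of the repressed genes is 0.70.

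Genes whose pattern over the 3 lines was most like that of a member were sought among 9388 genes with a mean of at least 5 CPM, by the distance between deviations on the log2(CPM + 1) scale. The nearest to *Myc* were *Zc3h13*, at a distance of 0.0074 (148, 135.5 and 114 CPM), *Mrps14* and *Snora73b*, and 329 genes (3.50%) lay within 0.1. The nearest to *Mxd3* were *Gja1*, which encodes connexin 43 (114, 186 and 81.8 CPM, distance 0.0512), *Gm16576* and *H2-Q4*, and 2 genes lay within 0.1. Likeness over 3 libraries is a description only.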

How the data were processed

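Poly(A) RNA of 3 Cdk6KM/KM BCR-ABLp185 lines was sequenced. The authors trimmed reads with Trimmomatic, merged lanes, aligned to mm10 (GRCm38) with STAR, and ran featureCounts over Gencode M13 exons, and the deposited values are raw counts for each gene. The labels and the paper name different library kits, and the strand setting and the treatment of multi-mapping reads were not given in the sources used here. Of the members, *Mlx* had the largest share of 50-base stretches that also occur in transcripts of other genes, at 17.5%, followed by *Mxd4* at 12.0%. Both strands were searched, so these shares also count antisense overlap at the same place, such as that of *Mlx* with *Psmc3ip*. The 6 other sample columns of the table were not used. Whether lines came from separate animals was not stated, and tests cover differences between these libraries.

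Of 50686 identifiers, 50462 matched Gencode M21 (same assembly), which gave symbols, coordinates and lengths. Counts were scaled with edgeR 4.0.16 (TMM, R 4.3.3). Genes that had 10 counts or more in all lines together were tested by chi-square, and ratios got exact binomial intervals at 95% (Python 3.11.15, scipy 1.17.1). Adjusted p-values are from that chi-square test with Benjamini-Hochberg adjustment over all genes. The procedure was tested on simulated counts that held counting error only, with changes placed in line 3. Such counts cannot show how the test behaves under the spread of repeated cultures. Total counts were 21569845, 19633463 and 25773221.

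Named genes were all members, *Mga*, *Mlxip*, *Mlxipl* and *Cdk6*, per list the 2 with the highest mean CPM and the 2 with the largest range (mean CPM of 5 or more), and the 3 nearest in pattern to *Myc* and to the member with the largest range. *Lyz2* and *Arrdc4* were named after their values were seen. Members and lists were chosen with earlier results of these data known. A gene that the rule names is not reported here.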

Additional observations from a re-analysis of the deposited data

How the results depend on the processing

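No paired analysis was possible because all 3 libraries belong to 1 group. DESeq2 1.42.0 size factors, library size alone, a minimum of 10 counts in every line, no filter on low counts and exact binomial tests of pairs of lines moved no count of calls by over 1.5 times. With a flank of 2 Mb, the range of neighbor medians was 0.93 in place of 0.73 for *Max* and 0.72 in place of 0.57 for *Mxd3*. Over the settings tried, 68 of 72 member calls stayed on the same side of the threshold, and the 4 others (*Mycn*, *Max*, *Mxi1* and *Mlx*) were lost when 1 line was left out. Leaving out each line in turn gave 5 to 8 called members, 6098 to 7267 called genes, 7 to 9 called genes of MYC protein stability and a median member range of 0.12 to 0.46, each lowest without line 3. The called genes were 6098 of 12948 tested without line 3 and 7267 of 13331 tested without line 2. Length from the transcript with the longest coding sequence (chosen after seeing the data) gave 6.06 for activating to repressing partners and 4.16 for *Myc* to *Max*. At 0 to 3 counts, differences in *Mycl* were not detectable at this depth.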

Other observations

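Markers of the B-cell precursor stage were not equally steady between the lines. *Rag1* and *Rag2*, the recombinase genes of antigen receptor rearrangement, were measured at 22.4, 91.4 and 32.4 CPM and at 12.4, 31.8 and 11.0 CPM in lines 1, 2 and 3, and both were highest in line 2, as *Mxd3* and 7 of the 10 cell cycle targets were. *Dntt*, the terminal transferase of early B-cell precursors, was measured at 0.967, 1.62 and 4.28 CPM, highest in line 3. All 12 markers of the stage were called by the chi-square test, 9 of them highest in line 2, and 3 had a range of at least 1. Of all genes tested, 66.8% were called, 20.6% were called and highest in line 2, and 10.9% had such a range. *Cdkn2b*, an inhibitor of CDK4 and CDK6 that MYC is known to repress, was measured at 1.70, 5.37 and 2.32 CPM and was the other gene of the network lists, beside *Mxd3*, with a range of at least 1. These genes were named after their values were seen.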
